A study of Mus musculus with 6 samples.

Results

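The genes described here were 10 regulators of cell cycle exit, chosen by name: the CDK inhibitors Cdkn1a (p21), Cdkn1b (p27), Cdkn1c (p57) and Cdkn2c (p18), the D cyclins Ccnd1, Ccnd2 and Ccnd3, the kinases Cdk4 and Cdk6, and the pocket protein gene Rb1. A gene counted as present in a library when a deposited peak overlapped at least 1 base of any of its annotated exons (GENCODE M21, mm10). All 10 carried such a peak in at least 1 of 5 libraries, where 46.9% of the 21951 annotated protein-coding genes did. Their peaks merged into 40 intervals, of 38946 exonic intervals in all.

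RNA associated with Ago2, the protein of the RNA-induced silencing complex (RISC) that holds the miRNA, was precipitated with an anti-Ago2 antibody and sequenced. The cells were myocytes made from primary mouse satellite cells (MSC), the muscle progenitors, after 30 h in differentiation medium (DM). The control-IP group received a siRNA duplex against GFP and the miR-222-IP group received miR-222 duplex, and both were lysed 16 h after transfection. Experiment 1 held miR-222-IP replicate 1 with control-IP replicates 1 and 2, and experiment 2 held miR-222-IP replicate 2 with control-IP replicates 3 and 4. The labels give a duplex concentration of 10 nM and the methods of the study a higher one. The labels do not say that the libraries of a group came from separate cultures, and with 1 miR-222-IP per experiment no difference within an experiment has a replicate check. The miR-222 of the miR-222-IPs was added by transfection, on top of what the cells held of their own.

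D cyclins bind Cdk4 or Cdk6 and the kinases then phosphorylate the retinoblastoma protein Rb1, which lets E2F factors switch on the genes of DNA replication. The Cip/Kip proteins p21, p27 and p57 and the INK4 protein p18 block these kinases, and skeletal myoblasts need them to leave the cell cycle for good when they differentiate. A miRNA held by Ago2 pairs with a transcript mainly through its seed, bases 2 to 8, and the mRNAs of p27 and p57 are known targets of miR-221 and miR-222, which share a seed.

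The mature miRNA is shown with every match to its whole seed in these genes, every shorter match that lay under a peak, and the pair of shorter matches next to the whole one in Cdkn1b. In the miRNA (RefSeq, GRCm38.p6, chrX:19146901-19146923, minus strand) capitals mark the seed, and in the sites, read on the coding strand of mm10 from the 5′ end, capitals mark the bases complementary to it.
miR-222-3p: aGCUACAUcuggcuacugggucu
Cdkn1c, 3′UTR, chr7:143458914-143458943, minus strand: acctttcgttcATGTAGCaggaaccggaga
Cdkn1b, 3′UTR, chr6:134924420-134924449, plus strand: aaaagcattggATGTAGCattgcgcaatta
Cdkn1b, 3′UTR, chr6:134924497-134924526, plus strand: atcttttactcTGTAGCacataaacgttag
Cdkn1b, 3′UTR, chr6:134924576-134924605, plus strand: ttgcttcaattTGTAGCaaggagaaaaata
Ccnd2, 3′UTR, chr6:127126535-127126564, minus strand: gctgggggtacATGTAGCacccctggatcc
Ccnd2, 3′UTR, chr6:127125316-127125345, minus strand: atgctgatgtgATGTAGCcgttaagtcttc
Ccnd1, 3′UTR, chr7:144931804-144931833, minus strand: ccttcctatttTGTAGCtctgtttagagag
Ccnd1, 3′UTR, chr7:144930410-144930439, minus strand: atattgtttctTGTAGCggcctgttgtgca
Ccnd3, end of the coding sequence, chr17:47598761-47598790, plus strand: agccattcaccTGTAGCttgagacaggccc
Ccnd3, exon of a non-coding transcript, chr17:47579055-47579084, plus strand: acaggaatggcATGTAGCtttcttagagtt
Cdk6, 3′UTR, chr5:3522641-3522670, plus strand: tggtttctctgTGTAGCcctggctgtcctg

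The exons of the 10 genes held 5 matches to the whole seed (ATGTAGC), 1 each in Cdkn1b, Cdkn1c and a non-coding transcript of Ccnd3 and 2 in Ccnd2. Of these matches, 1 lay under a peak, that of Cdkn1c, and it lay under a peak in all 5 libraries, the control-IPs included. Correspondingly 1 of the 40 intervals held the match, or 2.5%, where 2.51% of 37545 exonic intervals that could be read on 1 strand did. The share was thus not above the background. The 40 intervals were wider, with a median of 506.5 bp against 376 bp for exonic intervals, and a wider interval has more room for a match. With the shorter match to bases 2 to 7 (TGTAGC), which includes every match to the whole seed, there were 17 sites in the exons and 5 under a peak. The 4 added ones lay in Ccnd1, which had 2, Ccnd3 and Cdk6. Cdkn1a and Cdk4 held neither form of the match in any exon. A match is a run of letters and not a measured contact.

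The lists give each peak as a position with its −log10 p from macs2, and no listed peak was below 20. A library without a listed peak is written here as having no peak, which says only that none passed that threshold. The lists held 10579 to 37762 peaks in the 5 libraries, fewest in control-IP replicate 1 and most in miR-222-IP replicate 2, with median widths of 362 to 411 bp. Control-IP replicate 3 stood apart, with 3619 peaks of a median width of 32103 bp on 10 chromosomes, and is given separately. The reads behind each peak are unknown, a −log10 p grows with the depth of a library as well as with enrichment, and dividing one by another gives no fold change in RNA. The labelled cell type showed in part: all 10 skeletal myocyte markers had a peak in some library, but the differentiation factor Myog had, of the 5 libraries, one only in miR-222-IP replicate 2 (75.7). The leukocyte markers were strong, with Cd68 at 114 to 139 in all 5 libraries and Ptprc at 69.0 to 142 in 4, and the endothelial Pecam1 stood at 26.1 to 81.2, whereas Cdh5 had a peak only in control-IP replicate 2 (25.2). The adipocyte markers Adipoq and Plin1 and the fibroblast markers Dcn and Lum had none, and Pdgfra had one only in control-IP replicate 4 (20.1). All 5 markers of proliferating cells had peaks, 2 of them in every library. In such bulk material fewer cells of a type, less RNA per cell and less of a transcript held by Ago2 cannot be told apart. A peak over a marker therefore does not show that its cell type was present. The part of any such cells in the values below was not tested.

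**Figure D1:**
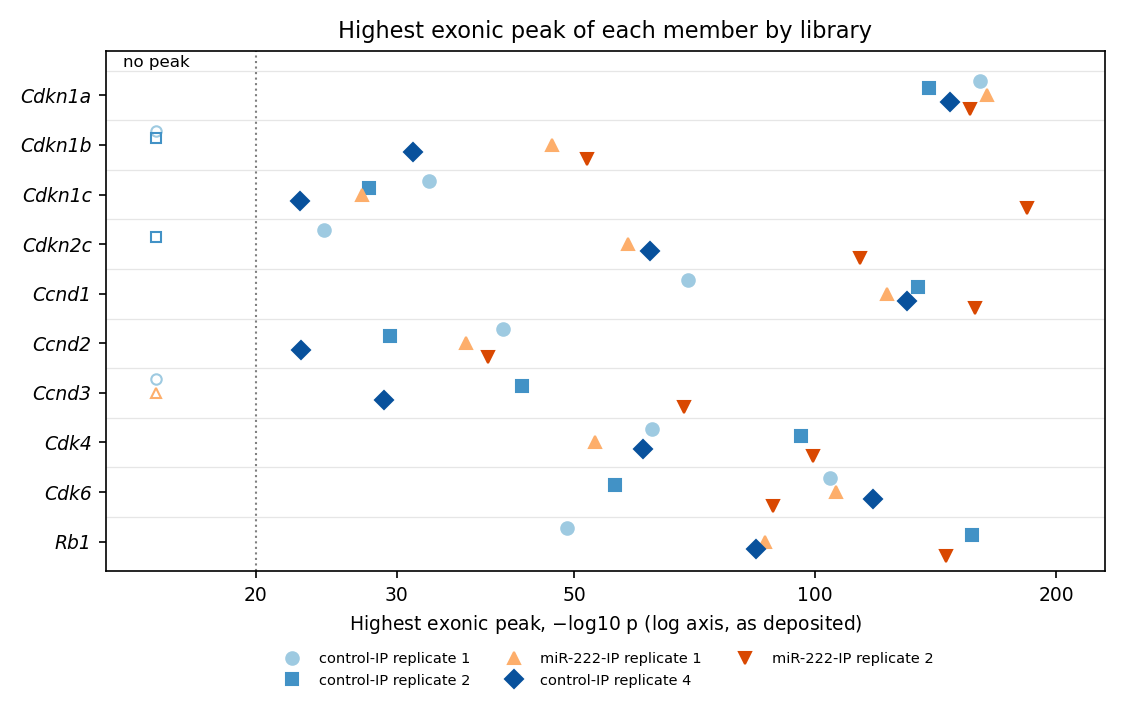
The highest exonic −log10 p of each gene (horizontal log axis, as deposited) is plotted for the 5 libraries, with open symbols at the left for no peak and a dotted line at the threshold of 20. Cdkn1a sits between 139 and 164 in every library, whereas Cdkn1c sits between 22.7 and 32.9 in 4 libraries and at 184 in miR-222-IP replicate 2. The Rb1 value of control-IP replicate 2 (157) comes from an interval over Lpar6 exons, and over the reference transcript of Rb1 it is 70.1.

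Of the 10 genes, 7 had a peak in every one of the 5 libraries, where 40.4% of the 10289 genes with any peak did. The exceptions were Cdkn1b, Cdkn2c and Ccnd3. Of the 40 intervals, 17 had a peak in all 5 libraries, against 19.8% of exonic intervals, and these lay in 7 genes. The miR-222-IP replicate 2 alone called 7 intervals, against 30.9%, and both miR-222-IPs with no control-IP called 2, against 6.54%. Those 2 lay over exons 2 to 5 of Cdk4 and exon 25 of Rb1. Neither share was above that of exonic intervals in general.

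Of the 40 intervals, 29 touched coding sequence (CDS), 15 touched a 3′UTR, 6 touched a 5′UTR, and 2 touched only exons of other transcripts. Rb1, whose coding exons gave separate intervals, supplied 12 of the 29. By bases under a peak, coding sequence exceeded 3′UTR in Cdkn1b, Cdkn2c, Cdk4 and Rb1 (1772 against 754 nt in Rb1). In the other genes the 3′UTR exceeded coding sequence, as in Cdk6 (3171 against 386 nt). The share of the 3′UTR under a peak of any of the 5 libraries differed widely among genes. It was 100% for Cdkn1a (1329 nt) and Ccnd3 (907 nt), 93.8% for Cdkn2c, 90.0% for Cdk4, 83.1% for Cdkn1c and 82.8% for Ccnd1 (2676 nt). It was 44.1% in Rb1 (1709 nt), 31.0% in Cdk6 (10217 nt) and 21.8% in Ccnd2 (5173 nt). In Cdkn1b none of the 3439 nt of the 3′UTR lay under a peak, while 80.0% of its coding sequence did. Coverage by a peak depends on the depth of the library and on transcript length, and was not tested. For Cdkn1a the whole transcript lay under peaks only in miR-222-IP replicate 2, and 38.3% to 57.8% of it in the other libraries.

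**Figure D2:**
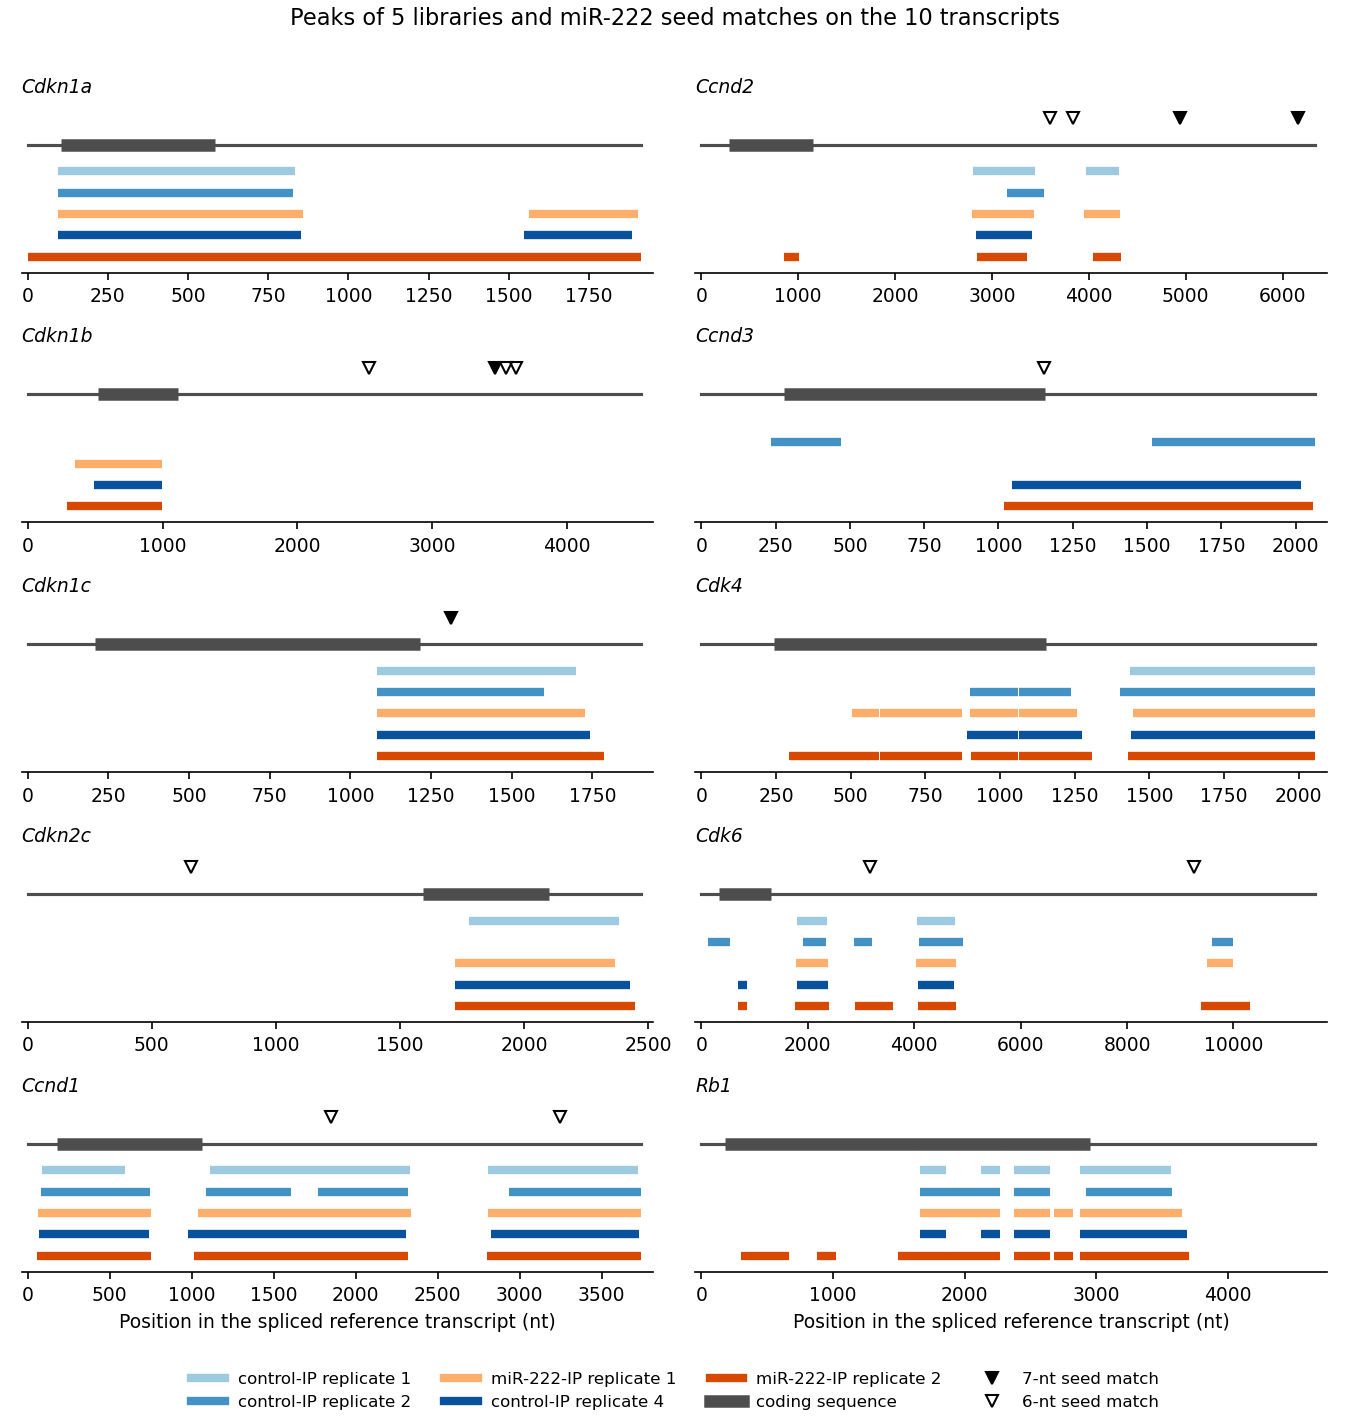
Each panel shows the spliced reference transcript of 1 gene (horizontal axis, nucleotides from the 5′ end; thick line, coding sequence), the peaks of the 5 libraries as bars and miR-222 seed matches as triangles, filled for the whole seed. The filled triangle of Cdkn1c stands above peaks of all 5 libraries, and those of Cdkn1b and Ccnd2 stand over stretches without a peak.

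Among the Cip/Kip inhibitors, Cdkn1a had the highest −log10 p in every library except miR-222-IP replicate 2, where Cdkn1c exceeded it. Its exon 2, with the start of the coding sequence (chr17:29098325-29098934), gave a −log10 p of 160 and 139 in control-IP replicates 1 and 2, 148 in control-IP replicate 4, and 164 and 156 in the miR-222-IPs. These values overlapped between the groups, and placed Cdkn1a between the 92.1 and 97.2 percentile of the genes with a peak in each library. After the libraries were scaled to each other, the log2 ratios were −0.26 in experiment 1 and −0.51 in experiment 2. The last exon, with the whole 3′UTR (chr17:29099236-29100736), gave 99.9, 83.9 and 84.0 in the control-IPs and 133 and 142 in the miR-222-IPs. Here both miR-222-IPs exceeded the 3 control-IPs as deposited, but the scaled log2 ratios were 0.15 in experiment 1 and 0.16 in experiment 2, less than the 0.71 between the pair of control-IPs of experiment 1. The upstream exon 1 had a peak only in miR-222-IP replicate 2 (36.9).

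The scaling used in these ratios divided each library by its median ratio to the geometric mean over the 7935 intervals that every library called, with factors from 0.706 in control-IP replicate 1 to 1.49 in miR-222-IP replicate 2. A ratio is the log2 of a miR-222-IP over the mean of the control-IPs of its experiment, and in experiment 2 over control-IP replicate 4 alone. Without scaling, the median of all these intervals was 0.46 in place of 0.00 for exonic ones, so an unscaled ratio is read against that shift.

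Cdkn1b, the p27 gene, had a single interval over its exon 1 (chr6:134920693-134921481), from the 5′UTR into the coding sequence. It had no peak in control-IP replicates 1 and 2, 31.4 in control-IP replicate 4, and 46.9 and 51.9 in the miR-222-IPs. The miR-222-IPs thus had the higher values as deposited, while the scaled log2 ratio in experiment 2 was 0.13 and none could be formed in experiment 1. The 4 seed matches of its 3′UTR lay 2014 to 3105 bp from this interval and under no peak. The match to the whole seed began at base 2357 of the 3′UTR, and the next 2, each followed by A, at bases 2434 and 2513.

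Cdkn1c, the p57 gene, had a single interval over exons 3 and 4 (chr7:143458458-143459306), spanning the end of the coding sequence and most of the 3′UTR. It gave 32.9, 27.7 and 22.7 in the 3 control-IPs, 27.1 in miR-222-IP replicate 1, and 184 in the second miR-222-IP. Thus 4 libraries lay close to the threshold, and 1 miR-222-IP stood far above them while the other lay below both control-IPs of its experiment. The log2 ratio was −0.55 in experiment 1, which is less than the 0.71 between its control-IPs, and 2.43 in experiment 2, where it exceeded 99.99% of exonic intervals. Over both experiments the mean was 0.94, with a two-sided exact permutation p of 0.833 and an adjusted p of 0.998. The match to the whole seed began at base 95 of the 685 nt of the 3′UTR, was followed by A, and lay within the peak of every library.

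Most of the myocyte markers moved with Cdkn1c in miR-222-IP replicate 2. The summed highest −log10 p of the 10 myocyte markers, with 0 for no peak, was 251, 220 and 216 in the control-IPs, and 359 and 1321 in the miR-222-IPs. The sum is not scaled, and the list of miR-222-IP replicate 2 was the longest. The markers with a peak were 6, 7 and 6 in the control-IPs, and 8 and 10 in the miR-222-IPs. A marker entered as 0 may have lain just below 20. Myod1, the muscle determination factor, gave 27.4, 22.3 and 26.8 in the control-IPs, and 29.2 and 174 in the miR-222-IPs. In experiment 2 the log2 ratio was positive for 6 of 6 markers that allowed one, with a median of 1.61 and the lowest in Myh3 (0.12). In experiment 1 it was positive for 2 of 6, with a median of −0.10. A positive sign in experiment 2 was not particular to muscle. It was found for 5 of 5 markers of proliferating cells (median 0.21) and 18 of 24 other pathway genes (median 0.16), with smaller medians. It was not general either. Of the leukocyte markers 0 of 2 were positive (median −0.69), as were 7 of the 17 intervals of the 10 genes called in every library. The median over exonic intervals in experiment 2 was 0.02. Ckm, the muscle creatine kinase, stood at 28.3 in control-IP replicate 2 and at 24.6 and 200 in the miR-222-IPs. Gapdh had no peak in control-IP replicate 1, 39.0 and 42.6 in the other control-IPs, and 25.4 and 128 in the miR-222-IPs. The part of this shift in the value of Cdkn1c was not tested. Without miR-222-IP replicate 2 the ratio of Cdkn1c rests on experiment 1 and is −0.55.

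**Figure D3:**
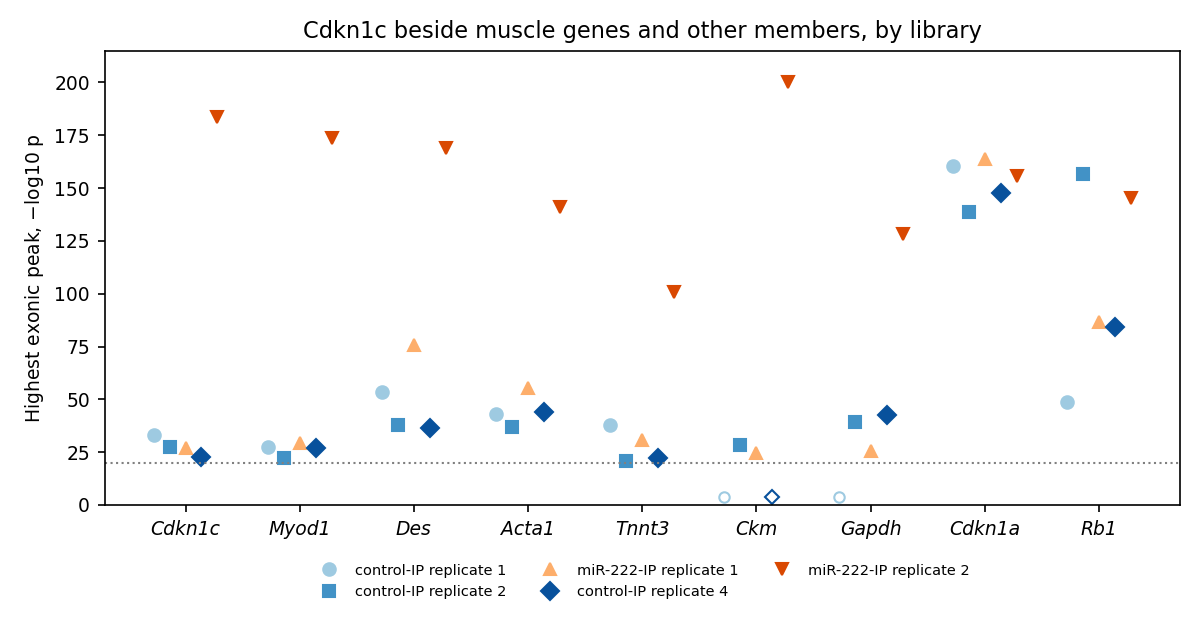
The highest exonic −log10 p (vertical axis) of Cdkn1c, 5 of the 10 myocyte markers, Gapdh, Cdkn1a and Rb1 is plotted by library, with open symbols near 0 for no peak and a dotted line at 20. The Rb1 value of control-IP replicate 2 (157) comes from an interval over Lpar6 exons, and over the reference transcript of Rb1 it is 70.1. In miR-222-IP replicate 2 Cdkn1c (184), Myod1 (174) and Ckm (200) stand far above the other 4 libraries, and as deposited Cdkn1a (156) does not.

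Cdkn2c, the INK4 inhibitor, had 1 interval over its last exon (chr4:109660899-109661692), with the end of the coding sequence and the 3′UTR. It gave 24.3 in control-IP replicate 1, none in control-IP replicate 2, 62.1 in control-IP replicate 4, and 58.3 and 114 in the miR-222-IPs. The groups overlapped, and the log2 ratio in experiment 2 was 0.28. Its only seed match, to bases 2 to 7, lay in the 5′UTR, 4833 bp from the peak in the genome.

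Of the D cyclins, Ccnd1 was covered most fully, with 67.9% to 78.6% of its transcript under peaks in each of the 5 libraries. Exon 2 (chr7:144937792-144938208) had the highest values, 69.4, 134 and 130 in the control-IPs and 123 and 158 in the miR-222-IPs. The long 3′UTR carried a pair of intervals. The first (chr7:144931332-144932691) gave 53.2, 60.1 and 62.2 in the control-IPs and 64.3 and 83.8 in the miR-222-IPs, and the second (chr7:144929900-144930871) 42.4, 88.7 and 78.7 against 62.8 and 96.2. After scaling, both miR-222-IPs lay below every control-IP of their experiment in these 2 intervals, with mean log2 ratios of −0.17 and −0.33, each with an exact permutation p of 0.333. They were 2 of the 17 intervals compared, against a background of 18%. Without scaling the same ratios were 0.31 and 0.11, both under the unscaled median of 0.46. Both miR-222-IPs then exceeded every control-IP of their experiment in the first interval, and in the second only miR-222-IP replicate 2 did. Each holds a match to bases 2 to 7, under peaks of all 5 libraries. Both intervals also overlap exons of LTO1, on the other strand, and the lists name no strand, so signal of these genes cannot be told apart. The exon 1 interval of Ccnd1 had log2 ratios of 0.08 and −0.34, and exon 3 had no peak in control-IP replicate 1 and 30.5 to 51.5 in the others.

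Ccnd2 showed weaker peaks in its 3′UTR. The interval chr6:127127952-127128699 gave 40.7, 29.4 and 22.7 in the control-IPs and 36.6 and 25.1 in the miR-222-IPs, and its log2 ratios of −0.35 and −0.45 were smaller than the 0.93 between the control-IPs of experiment 1. A second interval (chr6:127127163-127127543) had 24.1 in control-IP replicate 1 and 33.5 and 39.0 in the miR-222-IPs, with no peak in control-IP replicates 2 and 4. Both matches to the whole seed lay further downstream, at bases 3782 and 5001 of the 3′UTR, 609 and 1828 bp from the nearest interval and under no peak.

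Ccnd3 was called in 3 libraries. Its last exon (chr17:47598637-47599686) gave 43.0 in control-IP replicate 2, 28.9 in control-IP replicate 4, 68.6 in miR-222-IP replicate 2, and none in the other miR-222-IP. The interval also overlaps exons of Bysl on the other strand. A match to bases 2 to 7 crosses the end of the coding sequence there, under the peaks of control-IP replicate 4 and miR-222-IP replicate 2, and the match to the whole seed lies in an exon of a non-coding transcript, 14495 bp away.

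Of the kinases, Cdk4 was called in all 5 libraries only at its 3′ end (chr10:127067267-127068611). That interval gave 62.4, 96.0 and 60.9 in the control-IPs and 53.0 and 99.2 in the miR-222-IPs. It was lower in miR-222-IP replicate 1 than in both control-IPs, with a log2 ratio of −0.90, while the ratio in experiment 2 was 0.11. About as many of its bases lay outside Cdk4 exons (691) as in the 3′UTR (654), and it overlaps Tspan31 on the other strand. The coding exons gave weaker peaks: exons 6 and 7 had 27.8, 22.3, 21.02 and 26.7 in the 4 libraries other than control-IP replicate 1, the interval at the stop codon had 22.7, 32.1, 24.5 and 28.7 in the same libraries, and exons 2 to 5 had peaks only in the miR-222-IPs, of 27.1 and 32.5.

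Cdk6 was called mainly within its long 3′UTR. The interval chr5:3521245-3521881 gave 104, 43.8 and 118 in the control-IPs and 106.1 and 88.6 in the miR-222-IPs. The interval chr5:3523526-3524399 gave 76.5, 56.2 and 91.6 in the control-IPs and 89.0 and 67.4 in the miR-222-IPs. In both, miR-222-IP replicate 2 lay below control-IP replicate 4 even as deposited, although its list was the longest. The log2 ratios in experiment 2 were −1.01 and −1.03, at the 1.47 and 1.33 percentile of exonic intervals, whereas those in experiment 1 were 0.06 and 0.02, with 1.71 and 0.90 between the control-IPs. Neither interval held a seed match, and the match to bases 2 to 7 under a peak was in a separate 3′UTR interval, called in control-IP replicate 2 (23.7) and miR-222-IP replicate 2 (21.2). Cdk6 was also the only one of the 10 genes with peaks in its body that touched no annotated exon of the gene, in 4 libraries with the highest at 21.1 to 40.2.

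Rb1 had 14 intervals, of which 12 lay over its reference transcript. Within that transcript its end (chr14:73196457-73197359, exon 27) had the highest values, 48.9, 70.1 and 84.3 in the control-IPs and 86.6 and 146 in the miR-222-IPs. Exons 22 and 23 (chr14:73205648-73206230) gave 41.0, 52.3 and 60.8 against 68.1 and 104, and exon 20 (chr14:73211506-73211848) 21.04, 30.6 and 28.9 against 37.9 and 51.8. In these 3 intervals both miR-222-IPs exceeded every control-IP of their experiment, also after scaling. They were 3 of the 17 intervals compared, or 17.6%, and the background was 17.6%. The mean log2 ratios were 0.20, 0.19 and 0.24, nearly equal in the experiments, with an exact permutation p of 0.167 each, the smallest that 6 arrangements can give. Since the 3 belong to 1 transcript they are not independent. Scaled to the summed −log10 p of each library, the ratios were −0.21, −0.23 and −0.17, where the median of all intervals was −0.41.

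The other Rb1 exons varied more. Exon 17 (chr14:73262411-73262817) gave 38.0, 37.5 and 41.0 in the control-IPs, and 45.2 and 107 in the miR-222-IPs, with log2 ratios of −0.11 and 0.79. Exons 2, 3, 4, 8 and 14 to 16 had peaks only in miR-222-IP replicate 2, from 20.1 to 25.6. Exons 18 and 19 had peaks in control-IP replicate 2 (21.6 and 39.0) and in both miR-222-IPs (33.6 to 58.7). An interval outside the reference transcript (chr14:73238021-73239767) gave 41.6, 157 and 75.8 in the control-IPs and 72.6 and 114 in the miR-222-IPs. It covers exons of Lpar6, a gene within an Rb1 intron on the other strand, and a further interval overlaps exons of Rcbtb2, also on the other strand, so neither can be assigned to Rb1.

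Over the 17 intervals called in every library, the median of the mean log2 ratio was −0.17, from −0.51 in Cdk6 to 0.94 in Cdkn1c, and 0.00 over the 7698 such exonic intervals of all genes. In experiment 1 the ratio was positive in 8 of 17 and in experiment 2 in 7, it was positive in both in 4, against 27.2% of exonic intervals, and in 7 the signs differed. By the exact permutation test within experiments, with Benjamini-Hochberg adjustment over the 7935 intervals, none of the 17 passed an adjusted p of 0.05, nor an unadjusted one. The smallest adjusted p was 0.975, and with 6 arrangements no interval could have passed. The SD of the log2 ratio between control-IP replicates 1 and 2 over exonic intervals was 0.75. That of miR-222-IP over control-IP was 0.47 in experiment 1 and 0.53 in experiment 2. Of the 17 mean ratios, 15 lay within 0.50 of 0, but a mean over both experiments has another spread than these single ratios. The shares of exonic intervals within that bound, or with differing signs, were not computed.

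**Figure D4:**
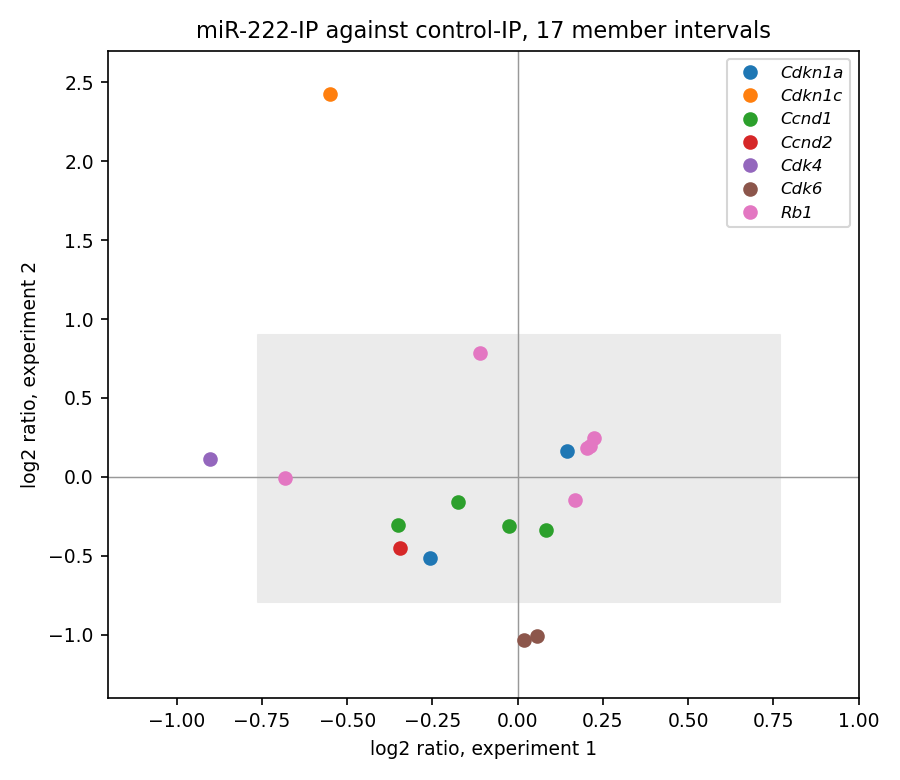
Each point is 1 of the 17 intervals called in every library, placed by its scaled log2 ratio of miR-222-IP over control-IP in experiment 1 (horizontal) and experiment 2 (vertical), and the grey area spans the 5th to 95th percentile of exonic intervals on each axis. Cdkn1c stands apart at −0.55 and 2.43, the pair of Cdk6 intervals lies near 0 and −1.0, and 4 points lie above 0 in both experiments.

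The wide-peak list of control-IP replicate 3 covered Cdkn1a, Ccnd3, Cdk4 and Rb1, each with 1 peak over the gene, of 130, 115, 94.0 and 148. It has no peak on chromosomes 4 to 7, where the other 6 genes lie, and so gives no information on these.

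Matches to other miRNA families in the same 40 intervals were sparse. An interval joins peaks of several libraries, so a match in it may lie under a peak in only some of them. The shares below are not corrected for the greater width of the 40 intervals. The 7 bases that pair with the miR-15/16 seed (TGCTGCT) were in 4 intervals, all in 3′UTRs, of Cdkn1a, Ccnd1, Ccnd2 and Ccnd3, or 10.0% against 10.5% of exonic intervals. The number of libraries with a peak over the site was 1 for Cdkn1a, 5 for Ccnd1, 4 for Ccnd2 and 3 for Ccnd3. Those for let-7 (CTACCTC) were in 3 intervals, a pair in Cdk4 and 1 in Rb1, or 7.5% against 3.62%. Those for miR-17/20 (GCACTTT) were in 3, of Cdkn1a, Ccnd1 and, outside its exons, Rb1, or 7.5% against 4.08%. Here the sites of Cdkn1a and Rb1 each lay under a peak in 1 library, and that of Ccnd1 in 5. The myogenic miR-1 family (ACATTCC) and miR-133 (GGACCAA) had matches in 2 intervals and 1, or 5.0% and 2.5% against 3.44% and 3.25%, and the miR-1 match in Cdkn1a lay outside its exons. No interval of Cdkn1c or Cdkn2c held a match to any of the 8 other families searched, which also included miR-26, miR-29 and miR-34.

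Of 36 other genes of the pathway (E2F and DP factors, S and M phase cyclins and kinases, the DREAM complex and regulators of the inhibitors), 34 had a peak in some library and 10 of these in all 5. Among all protein-coding genes 46.9% had a peak in some library, and 40.4% of those had one in all 5. The INK4 gene Cdkn2a, which shares its locus with Arf, and Ccne2, a cyclin E, had none. In 2 of their 13 intervals with a peak in every library both miR-222-IPs exceeded the control-IPs of their experiment, and in 0 they lay below, against 17.6% and 18% of exonic intervals. By median −log10 p the strongest were Tfdp1, the DP partner of E2F, at 127, E2f1, an activating E2F, at 126, and the histone-binding Rbbp4 at 105. Cdk1, Ccna2 and E2f3, which drive S phase and mitosis, held a match to the whole miR-222 seed under a peak. Among exonic intervals in general the share with such a match was 2.51%. The 36 pathway genes had 105 intervals, so a few matches come with that share. The values that follow are the highest over all exons of each gene. Cdk1, Ccna2 and E2f3 had 2, 5 and 5 intervals, so these values need not come from the peak over the match. The highest exonic value of the mitotic kinase Cdk1 was 48.3 and 38.7 in the control-IPs that had a peak (replicates 2 and 4), and 27.5 and 61.3 in the miR-222-IPs, and that of cyclin A2 (Ccna2) was 31.8, 66.9 and 75.1 in the control-IPs and 78.1 and 96.2 in the miR-222-IPs. For E2f3 it was 41.4 and 30.3 in these control-IPs, and 32.3 and 44.4 in the miR-222-IPs. The groups overlapped for Cdk1 and E2f3. For Ccna2 they did not overlap as deposited, where both miR-222-IPs exceeded the control-IPs of their experiment in 50.1% of all intervals called in every library, and its scaled log2 ratios were 0.37 in experiment 1 and −0.23 in experiment 2.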

How the data were processed

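RISC-IP RNA of MSC myocytes was measured in 6 libraries, 4 control-IPs and 2 miR-222-IPs. The authors aligned the reads to mm10, converted alignments to BED format with bedtools and ran macs2 with its defaults on each library. They then deposited, for every peak past a threshold of 20, its position and −log10 p. Which macs2 version and which background track they used is not given in the sources used here. Read counts were not used, so depth is unknown and no counting error can be given.

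Peaks of the 5 libraries other than control-IP replicate 3 were merged where they overlapped or touched, with the highest −log10 p of a library over an interval as its value (Python 3.11.15, numpy 2.4.6, pandas 2.3.3, bedtools 2.31.1). Exons came from GENCODE M21 on GRCm38, transcript parts from 1 principal transcript per gene with the stop codon in the coding sequence, and sequences from GRCm38 through pysam 0.24.0. Seed matches were searched on the coding strand only, in spliced transcripts for miR-222 and in the genomic sequence of intervals for the other families.

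Log2 ratios were tested by permuting condition labels within experiments (two-sided, 6 arrangements, control-IP replicate 3 left out). The model of the study needs read counts and could not be run. Scripts were tested on simulated data. The 10 genes and the lists of pathway genes, markers and miRNA families were chosen with earlier results of these data known. Of the pathway genes, those with a whole-seed match under a peak and the 3 with the highest median over libraries with a peak in all 5 are named, beside Gapdh, Myog and Myod1. The other marker genes of each list are given where a result moves with them. Alternatives covered the threshold, overlap, merging, transcript set, scaling, libraries without a peak, the experiment block, seed length, and leaving out each library in turn.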

Additional observations from a re-analysis of the deposited data

Results flagged for a closer look

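In 3 intervals the miR-222-IP lay, after scaling, on opposite sides of all control-IPs of its experiment in the 2 experiments, and the difference between the experiments was not tested. The log2 ratios were −0.55 in experiment 1 and 2.43 in experiment 2 for the single interval of Cdkn1c. For the 3′ end of Cdk4, an interval shared with Tspan31, they were −0.90 and 0.11. For the interval of Rb1 that is shared with Rcbtb2 they were 0.17 and −0.15, and as deposited both miR-222-IPs lay above the control-IPs there (60.9 against 33.3 and 53.9, and 78.5 against 57.6). Each experiment holds 1 miR-222-IP, and the ratio in experiment 2 compares 1 library with 1.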

How the results depend on the processing

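With peaks over 50 only, 4 genes in place of 7 had a peak in all 5 libraries and 22 in place of 40 intervals remained over their exons. Both miR-222-IPs exceeded the control-IPs of their experiment in 8 intervals in place of 3, and lay below them in 0 in place of 2, without scaling and also by percentile rank within a library. Over all intervals with a peak in the 5 libraries these shares then were 50.1% and 48.2% above and 2.75% and 2.85% below. The match to bases 2 to 7 lay under a peak at 5 sites in place of 1. The other alternatives for counts stayed within 1.5 times.

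The median over the 17 intervals, −0.17 as reported, was 0.31 without scaling, −0.56 with scaling to the summed −log10 p and −0.025 with libraries without a peak set to 20. Without scaling the sign reversed in Cdkn1a exon 2 (0.11), Ccnd1 (0.31, 0.28, 0.31 and 0.11), Ccnd2 (0.10), Cdk4 (0.062), Cdk6 (0.052) and the Lpar6 interval of Rb1 (0.068), where the median of all intervals was 0.46. With scaling to the sum it reversed in Cdkn1a exon 3 (−0.29) and Rb1 (−0.10, −0.17, −0.23, −0.21 and −0.39), where that median was −0.41. With control-IP replicate 3 included it reversed in Rb1 exon 20 (−0.26) and the Rcbtb2 interval (−0.15), and 9 of the 17 intervals had a value. That list gives every Rb1 interval the same value, 148 from 1 wide peak. No Rb1 interval thus has a value of its own there, and these reversals show nothing about single exons. The shift of all intervals under the other scalings follows from the scale itself, and the cause of the other changes was not tested.

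Leaving out 1 library gave medians from −0.16 to −0.019, counts of 33 to 40 intervals, and 1 match under a peak each time. Where the sign reversed, the mean ratio then ranged from −0.030 to 0.34 for Cdkn1a exon 3, −0.55 to 2.42 for Cdkn1c, −0.35 to 0.087 for Ccnd1 exon 1, −0.91 to 0.10 for Cdk4, −1.02 to 0.070 and −1.04 to 0.024 for Cdk6, and −0.11 to 0.77, −0.70 to 0.080 and −0.16 to 0.17 for exon 17, the Lpar6 and the Rcbtb2 interval of Rb1. The sign held in the rest, with −0.56 to −0.21 for Cdkn1a exon 2, −0.32 to −0.019, −0.26 to −0.11 and −0.47 to −0.19 for Ccnd1 exon 2 and its pair of 3′UTR intervals, −0.62 to −0.14 for Ccnd2, and 0.14 to 0.24 over exons 20, 22 to 23 and 27 of Rb1. Without control-IP replicate 4 or miR-222-IP replicate 2 these values rest on experiment 1, and without miR-222-IP replicate 1 on experiment 2. Replicate numbers pair no libraries, and the groups were matched by experiment, as in the ratios reported. Without this experiment block the median was −0.14 and no sign reversed. None of these designs has enough arrangements for a p-value to pass the threshold, so no call could be lost or gained.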
